A study of Mus musculus with 11 samples.

Results

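Short cassette exons of 28 to 60 nt were followed in N2A (Neuro-2A) cells, which derive from a neuroblastoma of the mouse and were harvested 48 h after siRNA pools had been introduced. The pools silenced Fubp1 (2 libraries), Khsrp (2), Khsrp with Fubp1 (2, called the double knockdown) or Rbm38 (2), and 3 libraries came from control cells with a non-targeting pool (siNT). All 5 groups share the cell line, the transfection and the harvest time, and no label gives the libraries separate cultures, so every p-value below measures the spread between libraries, which may be technical. Poly(A) RNA was sequenced, and the measure of splicing is PSI (percent spliced in), the percentage of informative reads in which the exon is present. Of 13221 exons of this length in the deposited splicing table, 7572 had 10 or more reads in every library. Of these, 527 had a mean PSI under 1% over the 11 libraries, 4588 had one over 99%, and the 2457 in between, in 1901 genes, are the exons described here, among 60137 tested splicing events of all types. The exons were thus chosen by length, read number and the mean PSI over all libraries. That mean includes the knockdowns, so the choice is not independent of differences between groups. The rule itself compared no groups. At its limits lay the exons of Poc1b (mean PSI 1.00%, inside) and Trub2 (0.979%, outside), of Cenph (98.999%, inside) and Stx5a (99.001%, outside), and of D18Ertd653e (10.0 reads in the poorest library, inside) and Pibf1 (9.99 reads, outside). An exon that every group but one includes fully can enter through that one group, so the shares of changed exons below are shares of these 2457 and not of all short exons.

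A cassette exon is either spliced into the messenger RNA or skipped as a whole, and one whose length is a multiple of 3 nt leaves the reading frame intact when it is skipped. Very short exons leave little room for splicing enhancers and depend strongly on the surrounding introns, and many are included mainly in neurons. Fubp1 and Khsrp encode related proteins that bind single-stranded nucleic acid through KH domains; Khsrp is known for the neuronal exon of Src and for the decay of messages with AU-rich elements. Rbm38, a known target of p53, encodes an RNA-binding protein of another family, with an RNA recognition motif.

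The sequences that carry the results are shown first, read 5′ to 3′ from GENCODE vM21 transcripts on GRCm38, with the last 3 bases in capitals because they form the exon side of the 5′ splice site. The following 5 coding exons were lower after Fubp1 knockdown.
Asph, 45 nt, chr4:9637659-9637703, minus strand: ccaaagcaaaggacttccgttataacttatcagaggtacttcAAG
Dnm1l, 33 nt, chr16:16318445-16318477, minus strand: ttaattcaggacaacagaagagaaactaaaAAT
Arhgef12, 57 nt, chr9:43040540-43040596, minus strand: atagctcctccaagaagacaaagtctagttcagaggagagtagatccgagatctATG
Nav3, 42 nt, chr10:109760487-109760528, minus strand: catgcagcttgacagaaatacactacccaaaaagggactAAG
Tbc1d23, 45 nt, chr16:57181492-57181536, minus strand: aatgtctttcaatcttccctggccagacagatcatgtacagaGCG

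The next 4, in 3 genes, were higher after Fubp1 knockdown.
Ppfibp1, 33 nt, chr6:146999662-146999694, plus strand: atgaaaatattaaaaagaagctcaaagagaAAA
Unc5c, 57 nt, chr3:141786857-141786913, plus strand: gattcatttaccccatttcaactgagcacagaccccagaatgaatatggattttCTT
Nrf1, 56 nt, chr6:30140216-30140271, plus strand: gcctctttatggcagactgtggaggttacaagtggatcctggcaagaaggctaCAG
Nrf1, 36 nt, chr6:30090269-30090304, plus strand: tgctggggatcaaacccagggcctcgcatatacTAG

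Of the exons below, the first 6 were among those that lost most inclusion in the double knockdown and the last 4 among those that gained most.
Rasa1, 53 nt, chr13:85246591-85246643, minus strand: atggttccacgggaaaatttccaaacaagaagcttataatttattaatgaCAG
Ppp3cb, 30 nt, chr14:20503247-20503276, minus strand: ccacagttgaggctattgaggctgaaaAAG
Ppfia2, 30 nt, chr10:106904817-106904846, plus strand: aaagaatctgaggaaggaagctgggccCAG
Hectd2, 59 nt, chr19:36601470-36601528, plus strand: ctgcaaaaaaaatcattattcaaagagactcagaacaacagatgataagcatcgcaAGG
Ptbp2, 34 nt, chr3:119724612-119724645, minus strand: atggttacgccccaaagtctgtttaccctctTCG
Ranbp9, 53 nt, chr13:43436090-43436142, minus strand: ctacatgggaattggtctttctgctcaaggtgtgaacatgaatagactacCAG
Ythdf3, 33 nt, chr3:16203187-16203219, plus strand: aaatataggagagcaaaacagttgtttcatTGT
Ralgps1, 52 nt, chr2:33155288-33155339, minus strand: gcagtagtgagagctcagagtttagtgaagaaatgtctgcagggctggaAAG
Enox2, 48 nt, chrX:49013133-49013180, minus strand: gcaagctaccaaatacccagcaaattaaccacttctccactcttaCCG
Plekhm2, 60 nt, chr4:141637425-141637484, minus strand: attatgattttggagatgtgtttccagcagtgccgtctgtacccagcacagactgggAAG

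The first 3 of the next exons were higher after Rbm38 knockdown. Those of Numa1 and Kif1b, the last shown, had the smallest p-values in the Khsrp knockdown without passing the adjusted threshold.
Prune2, 36 nt, chr19:17211678-17211713, plus strand: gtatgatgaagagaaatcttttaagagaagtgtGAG
Phldb1, 45 nt, chr9:44698827-44698871, minus strand: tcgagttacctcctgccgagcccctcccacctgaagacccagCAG
Dync1i2, 60 nt, chr2:71233649-71233708, plus strand: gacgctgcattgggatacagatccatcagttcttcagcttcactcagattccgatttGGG
Numa1, 42 nt, chr7:102002295-102002336, plus strand: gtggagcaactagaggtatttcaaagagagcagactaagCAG
Kif1b, 42 nt, chr4:149261160-149261201, minus strand: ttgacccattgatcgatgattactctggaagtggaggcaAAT

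Among all 2457 exons, 1828 could be matched to a GENCODE exon of the same gene, strand and length by the length of at least 1 flanking intron (1550 by both). Of the matched exons, 1464 were coding throughout, 128 partly coding, 154 in an untranslated region and 82 in noncoding transcripts. The median length was 48 nt, and 1173 exons (47.7%) were a multiple of 3 nt long. In siNT cells 1403 exons had a mean PSI over 80%, 381 lay between 20 and 80%, and 673 were under 20%. A G was the last base in 1412 of the 1828 matched exons (77.2%) and an AG ended 974 (53.3%). Base composition was not compared between changed and unchanged exons, because fewer than 80% of all exons had a sequence.

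Knockdown was seen for every target in the authors' deposited table, with log2 fold changes between -3.42 and -2.60. Of 12 markers of these sympathoadrenal cells 11 reached 1 RPKM in every group of the authors' deposited table. Their summed level was 1382 RPKM with the Fubp1 pool, 1372 RPKM with the Khsrp pool, 1125 RPKM with both and 1662 RPKM with the Rbm38 pool, against 1466 RPKM in siNT cells, by the authors' deposited table. The part of this difference in the splicing results was not tested. Of 14 markers of glia, immune, fibroblast and endothelial cells, 1 reached 1 RPKM in every group, 7 stayed under it in all, and the sums were 7.70 to 11.6 RPKM by the authors' deposited table. In such bulk RNA, fewer cells of a type and less RNA per cell cannot be told apart. The median read number per short exon was 140 and 196 in libraries of the double knockdown, 164 and 265 for Khsrp and 244 to 282 for Fubp1 and Rbm38, against 207, 260 and 334 in siNT libraries. The part of depth in the differences below was not tested. By their titles the libraries number 1 to 4 (both Fubp1 libraries with siNT A and B) and 8 to 27 (the other knockdowns with siNT C). No label names these as batches, and the division into library sets was made here from the numbers alone. The numbers from 8 to 27 are 8, 9 and 11, then 20, 21 and 23, then 27, so that set may itself be divided. Values within these sets stand beside the counts of called exons.

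The double knockdown changed far more short exons than either single knockdown. Differences were tested with limma on log2 odds, the log2 of inclusion over exclusion reads, and an exon was counted as higher or lower at an adjusted p under 0.05 over all 60137 events where the mean PSI also differed by 10 points or more. In the Fubp1 knockdown 24 short exons were lower and 8 higher, against 0.316% and 0.0998% of all events (0.416% in either direction). In the double knockdown 231 were lower and 107 higher, where 4.7% and 1.71% of all events were (6.41% in either direction). In the Rbm38 knockdown 4 were higher and none was lower; among all events 0.0266% and 0.00333% were (0.0299% in either direction). The Khsrp knockdown had 0 calls in either direction, and 0.0% of all events were called. Single libraries also set the double knockdown apart. The median absolute difference in PSI between a knockdown library and a siNT library was 1.91 to 2.34 points for Fubp1, 1.84 to 2.13 points for Khsrp, 3.70 to 4.05 points for the double knockdown and 1.66 to 1.94 points for Rbm38, against 1.48 to 1.73 points between siNT libraries and 1.51 to 2.11 points between replicates of a knockdown. Exons with a PSI between 20 and 80% numbered 486 and 488 in the libraries of the double knockdown, against 383 to 399 in the other 9 libraries.

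**Figure D1:**
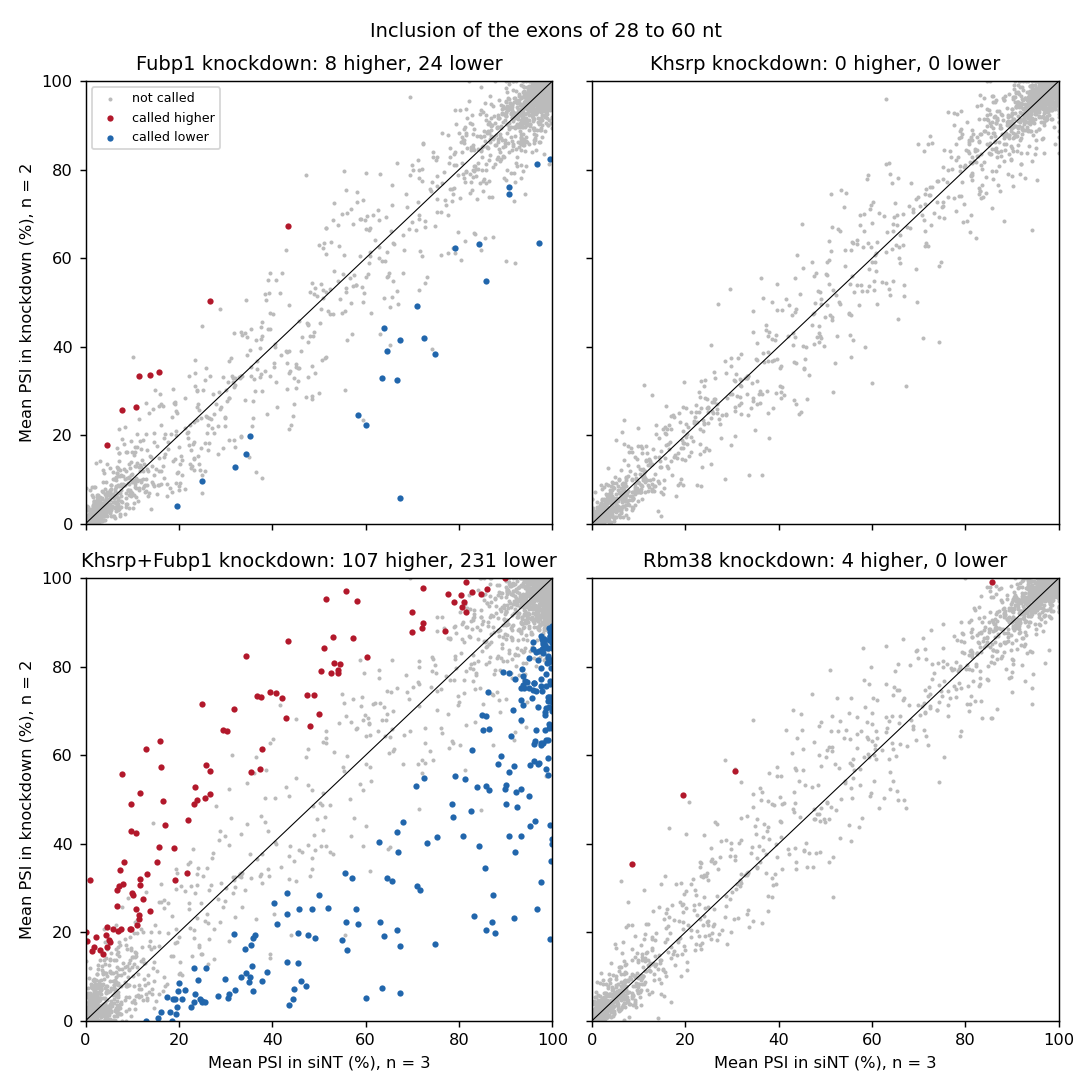
Mean PSI (%) of each of the 2457 short exons in a knockdown (y axis, 2 libraries) against siNT (x axis, 3 libraries), 1 panel per knockdown; red and blue points are exons called higher and lower, and grey points are not called. The points of the double knockdown spread widest, with 231 exons lower and 107 higher, against 24 and 8 for Fubp1, 0 for Khsrp and 4 higher for Rbm38.

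After Fubp1 knockdown alone, 24 exons in 23 genes lost inclusion, by 14.8 to 61.4 points (median 21.4), with exons of Asph, Dnm1l, Arhgef12 and Dock9 among those with the largest differences. Asph, which encodes a hydroxylase and proteins of the sarcoplasmic and endoplasmic reticulum, included its 45 nt exon at 24.1% and 20.4% in Fubp1 knockdown libraries, against 62.6%, 59.7% and 57.9% in siNT libraries. The log2 odds differed by -2.39 ± 0.28 (SE; limma adjusted p = 0.00439), and no Fubp1 library came near a siNT library. In Dnm1l, the GTPase that divides mitochondria, a 33 nt exon was at 34.5% and 30.5% after Fubp1 knockdown and at 68.3%, 73.5% and 58.4% in siNT (-2.08 ± 0.30 in log2 odds, SE; limma adjusted p = 0.0115). The siNT libraries of Dnm1l differed among themselves by less than their distance to the Fubp1 libraries. Arhgef12, an exchange factor for RhoA, had its 57 nt exon at 22.2% and 27.1% in the Fubp1 knockdown, against 59.8%, 61.3% and 54.2% in siNT (limma adjusted p = 0.0084).

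Losses were also seen in exons that most siNT transcripts carried. The 42 nt exon of Nav3, a neuron navigator that binds microtubules, was included at 64% and 62.96% in Fubp1 knockdown libraries and 95.6%, 95.5% and 100% in siNT libraries (difference in log2 odds -4.07 ± 0.64, SE; limma adjusted p = 0.0187), with 18 to 130 reads a library. Tbc1d23, a protein that captures endosome-derived vesicles at the Golgi, showed 51.3% and 58.2% inclusion of a 45 nt exon after Fubp1 knockdown, against 90.2%, 87.4% and 79.6% in siNT (limma adjusted p = 0.0187). Fam188a, a deubiquitinase, had 33.3% and 32.7% in the Fubp1 knockdown and 61.7%, 66.7% and 62.4% in siNT at its 52 nt exon (limma adjusted p = 0.0052). The largest difference was in Dock9, an exchange factor for Cdc42, whose 36 nt exon was at 3.45% and 8.22% in Fubp1 knockdown libraries and 69.99%, 59.5% and 72.3% in siNT libraries (difference in log2 odds -4.87 ± 0.47, SE; limma adjusted p = 0.00232). It rests on 12 to 50 reads a library, and GENCODE places a matching exon, with 1 flank in common, in an untranslated region of a transcript of Dock9.

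The 8 exons that rose after Fubp1 knockdown lie in 6 genes and moved by 13.1 to 23.9 points. Stox2, a protein with a winged-helix domain, included a 54 nt exon at 65.98% and 68.7% in Fubp1 knockdown libraries and 43.1%, 43.2% and 44.02% in siNT libraries (difference in log2 odds 1.42 ± 0.24, SE; limma adjusted p = 0.024). Ppfibp1, the scaffold liprin-beta-1, had 51.6% and 48.99% at its 33 nt exon in Fubp1 knockdown libraries, against 24.8%, 27.4% and 27.9% in siNT libraries (limma adjusted p = 0.0265). Unc5c, a receptor for the guidance cue netrin, stood at 33.6% and 33.1% after Fubp1 knockdown and at 10.7%, 9.73% and 13.7% in siNT at a 57 nt exon (difference in log2 odds 1.99 ± 0.25, SE; limma adjusted p = 0.0056). In all 3 genes the libraries of each group lay within 4 points of one another, and the groups lay well apart. Nrf1, a transcription factor of nuclear genes for mitochondria, had 2 such exons. Its 56 nt exon was at 26.5% and 25% in Fubp1 knockdown libraries, against 7.16%, 7.58% and 8.77% in siNT libraries (limma adjusted p = 0.00746), and its 36 nt exon at 19.1% and 16.4%, against 5.34%, 4% and 4.44% in siNT (limma adjusted p = 0.0115). Epb4.1, the protein that ties spectrin and actin to the membrane, also had a pair, neighbouring exons of 42 and 57 nt that can share reads. The 42 nt exon was at 33.1% and 34.02% after Fubp1 knockdown and 12.7%, 12.4% and 16% in siNT (limma adjusted p = 0.0224), and the 57 nt exon at 33.4% and 34.9% against 17.1%, 13.1% and 17.4% in siNT (limma adjusted p = 0.038). Anapc16, a subunit of the anaphase-promoting complex, completed the set with 25.9% and 26.8% in Fubp1 knockdown libraries and 10.5%, 10.9% and 11.1% in siNT libraries at a 50 nt exon (limma adjusted p = 0.0424).

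**Figure D2:**
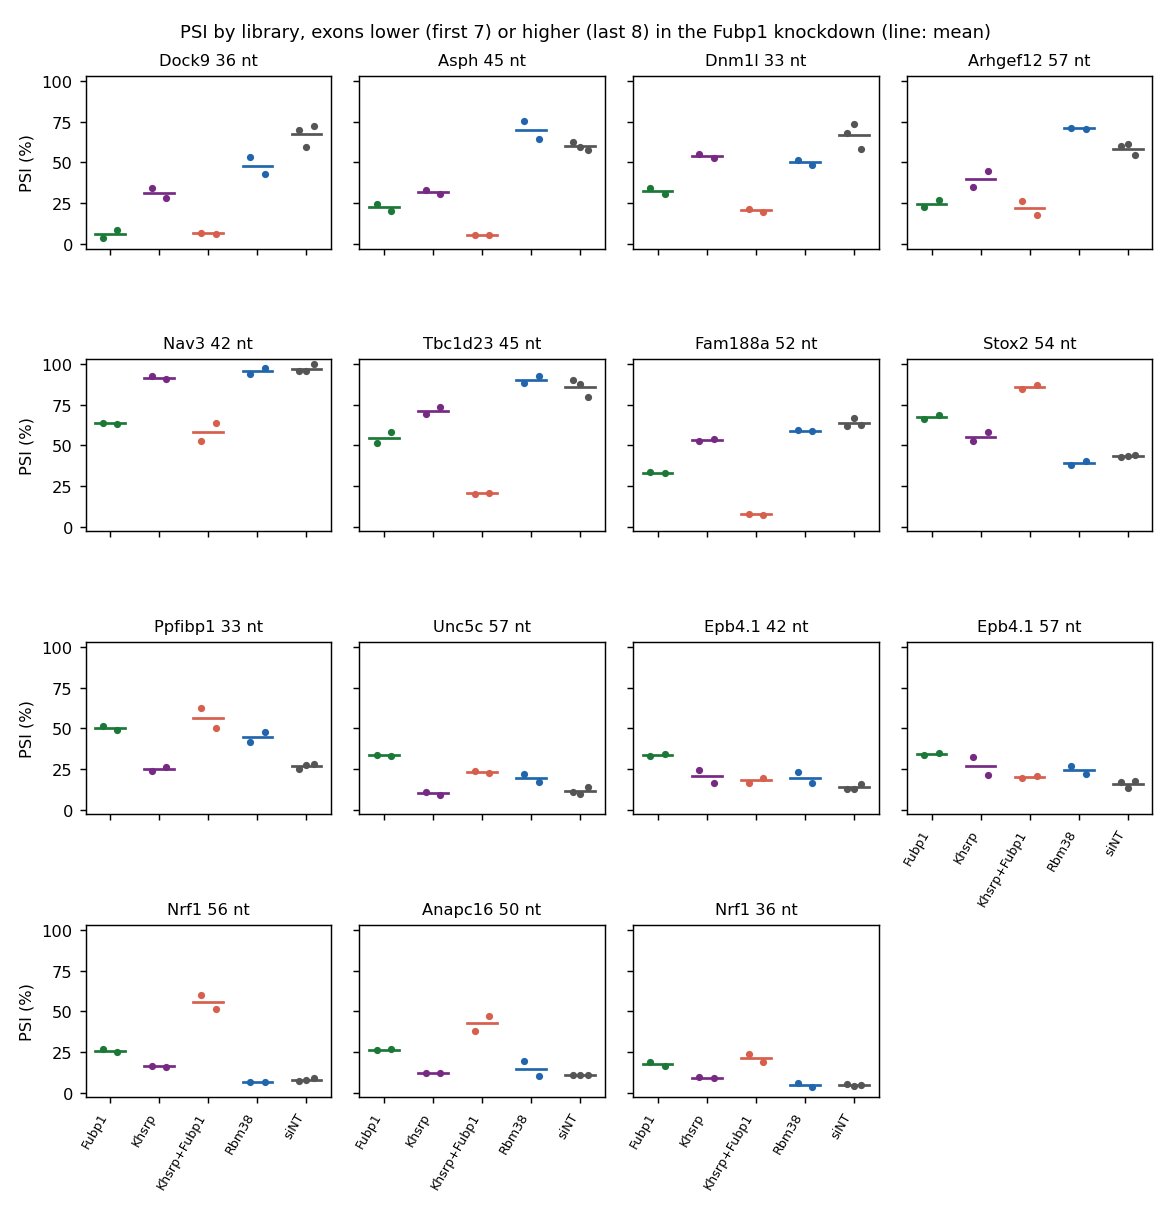
PSI (%) by library for 15 short exons, 1 panel each, with libraries as points and group means as lines; groups run Fubp1, Khsrp, Khsrp+Fubp1, Rbm38 and siNT. In the first 7 panels both Fubp1 libraries lie below all 3 siNT libraries (Asph at 24.1% and 20.4%, against 57.9% to 62.6%), and in the last 8 above them (Unc5c at 33.1% and 33.6%, against 9.73% to 13.7%).

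Of the 24 exons that fell after Fubp1 knockdown, 19 were a multiple of 3 nt long (79.2%), as were 6 of the 8 that rose; among the 2425 exons not called, 1148 (47.3%) were. These shares were not tested, since the exons of a gene are not independent. By inclusion in siNT, 16 of the 24 came from the 381 exons between 20 and 80%, 7 from the 1403 above 80% and 1 from the 673 below 20%. Of the called exons the median read number was higher than that of the rest (585 reads for lower and 318 for higher exons, against 229 for those not called). The call rate of short exons, 1.3%, stood between 0.838% of cassette exons over 60 nt and 4.18% of microexons of 3 to 27 nt, without a test of these differences. The authors' deposited table marks 280 short exons (11.4%) as changed after Fubp1 knockdown, all 32 included, where it marks 5.18% of events. Against siNT A and B alone, the control libraries of the same set, all 32 exons kept their direction and at least 10 points. The direction could not change, because the Fubp1 libraries of these exons overlapped no siNT library. A term for the library sets left 19 of the 32 calls, and leaving out 1 library left 5 (without Fubp1 A), 2 (without Fubp1 B), 19 (without siNT A) and 18 (without siNT B) of them. The totals were 5, 2, 21 and 20 calls. The fit with 1 Fubp1 library assumes that it varies like the other groups. Dock9 kept its call under each of these omissions, Asph lost it in 1, the other 5 lower exons named in 2 or 3, and the higher ones in 2 to 5 of the 5 omissions.

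In the double knockdown, exons of Rasa1, Ppp3cb, Ppfia2 and Ptbp2 were among those with the largest losses of inclusion. The 231 exons that fell, in 202 genes, did so by 10.3 to 81.0 points (median 23.4), and 83 of them by 30 points or more. Rasa1, a GTPase-activating protein of Ras, showed the largest change. Its 53 nt exon was included at 15.3% and 21.6% in libraries of the double knockdown, against 99.2%, 99.7% and 99.5% in siNT libraries (difference in log2 odds -9.63 ± 1.41, SE; limma adjusted p = 0.00108). The same exon was at 95.9% and 91.1% after Fubp1 knockdown and 98.5% and 90.7% after Khsrp knockdown alone. Ppp3cb, a catalytic subunit of the calcium-dependent phosphatase calcineurin, included its 30 nt exon at 27.3% and 23.2% in the double knockdown, against 97.4%, 95.9% and 97% in siNT (difference in log2 odds -6.46 ± 0.34, SE; limma adjusted p = 2.26e-06). With the single pools it stood at 82.4% and 79.97% (Fubp1) and 90.5% and 91.1% (Khsrp). Ppfia2, the presynaptic scaffold liprin-alpha-2, likewise had a 30 nt exon at 20.2% and 26.2% in the double knockdown, against 97.7%, 92.9% and 84.5% in siNT (limma adjusted p = 0.0132), on 22 to 113 reads, and 2 of 5 omissions of a library ended its call.

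Ptbp2 encodes the neuronal polypyrimidine tract binding protein, and skipping of its 34 nt exon is known to shift the reading frame and to send the message to decay. That exon was included at 26.5% and 18.2% in the double knockdown, 71.1% and 76.6% in the Fubp1 knockdown and 70.1% and 83.2% in the Khsrp knockdown, against 87.1%, 90.5% and 83.3% in siNT libraries. For the double knockdown the log2 odds differed by -4.57 ± 0.42 (SE; limma adjusted p = 5.12e-05), and neither single knockdown passed the test (limma adjusted p = 0.15 for Fubp1 and 0.418 for Khsrp). The level of Ptbp2 in the authors' deposited table was 73.7 RPKM in the Fubp1 knockdown, 52.8 RPKM in the Khsrp knockdown and 43.3 RPKM in the double knockdown, against 104 RPKM in siNT cells. The authors' deposited table gives log2 fold changes of -0.77, -0.94 and -1.34 for these, with FDR of 1.14e-07, 3.59e-10 and 1.37e-21. Inclusion and level were thus both lowest in the double knockdown, measured on the same libraries. They did not move together in every group. With the Rbm38 pool the exon was at 87.3% and 86.75%, within the siNT range, and the level was 72.7 RPKM by the authors' values (authors' FDR 0.044). The Khsrp knockdown had a lower level than the Fubp1 knockdown, while its mean inclusion was 76.6% against 73.8%. Whether the level follows inclusion was not tested.

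Further exons of 46 to 59 nt, none of them a multiple of 3 nt long, fell as well. The ubiquitin ligase gene Hectd2 had a 59 nt exon at 30.8% and 31.9% in the double knockdown, against 99.3%, 98.04% and 95.5% in siNT (limma adjusted p = 0.00067). Cenpk, a protein of the inner kinetochore, had its 47 nt exon at 44.8% and 35.2% in the double knockdown, against 100%, 99.8% and 99.8% in siNT (limma adjusted p = 6.63e-06). Ranbp9, a scaffold of a large ubiquitin ligase complex, differed more between replicates. Its 53 nt exon was at 24.2% and 47.97% in the double knockdown, against 100%, 100% and 99% in siNT (limma adjusted p = 0.0103), and 2 of 5 omissions ended the call. The 46 nt exon of Prpf4b, a kinase of the spliceosome, lies in an untranslated region of the matched transcript and was at 20.5% and 19.2% in the double knockdown against 90.5%, 72.4% and 100% in siNT (limma adjusted p = 0.00542) on 15 to 55 reads, and 1 omission ended its call.

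Losses reached 45 nt and shorter exons too. Tbc1d23, already lower after Fubp1 knockdown alone, was at 20.2% and 20.6% in the double knockdown, against 90.2%, 87.4% and 79.6% in siNT (difference in log2 odds -4.62 ± 0.39, SE; limma adjusted p = 2.78e-05). The 36 nt exon of Dock9 was at 6.85% and 5.77% in the double knockdown, against 69.99%, 59.5% and 72.3% in siNT (limma adjusted p = 0.000405), a level like the 3.45% and 8.22% of the Fubp1 knockdown; the double and the Fubp1 knockdown did not differ detectably (log2 odds 0.52 ± 0.58, SE; limma adjusted p = 0.729). Gm773, a gene on the X chromosome with no functional name, carried a deeply covered exon of 35 nt (883 to 6795 reads a library). It was included at 28.3% and 19.1% in the double knockdown, against 83.6%, 80.9% and 84.8% in siNT (limma adjusted p = 2.05e-05). Rc3h2, the RNA-binding ubiquitin ligase Roquin-2, had a 36 nt exon, in an untranslated region of the matched transcript, at 31.7% and 25% in the double knockdown against 89.7%, 76.4% and 95.8% in siNT (limma adjusted p = 0.0328). That call was lost in 4 of 5 omissions, with as few as 10 reads in a library.

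**Figure D3:**
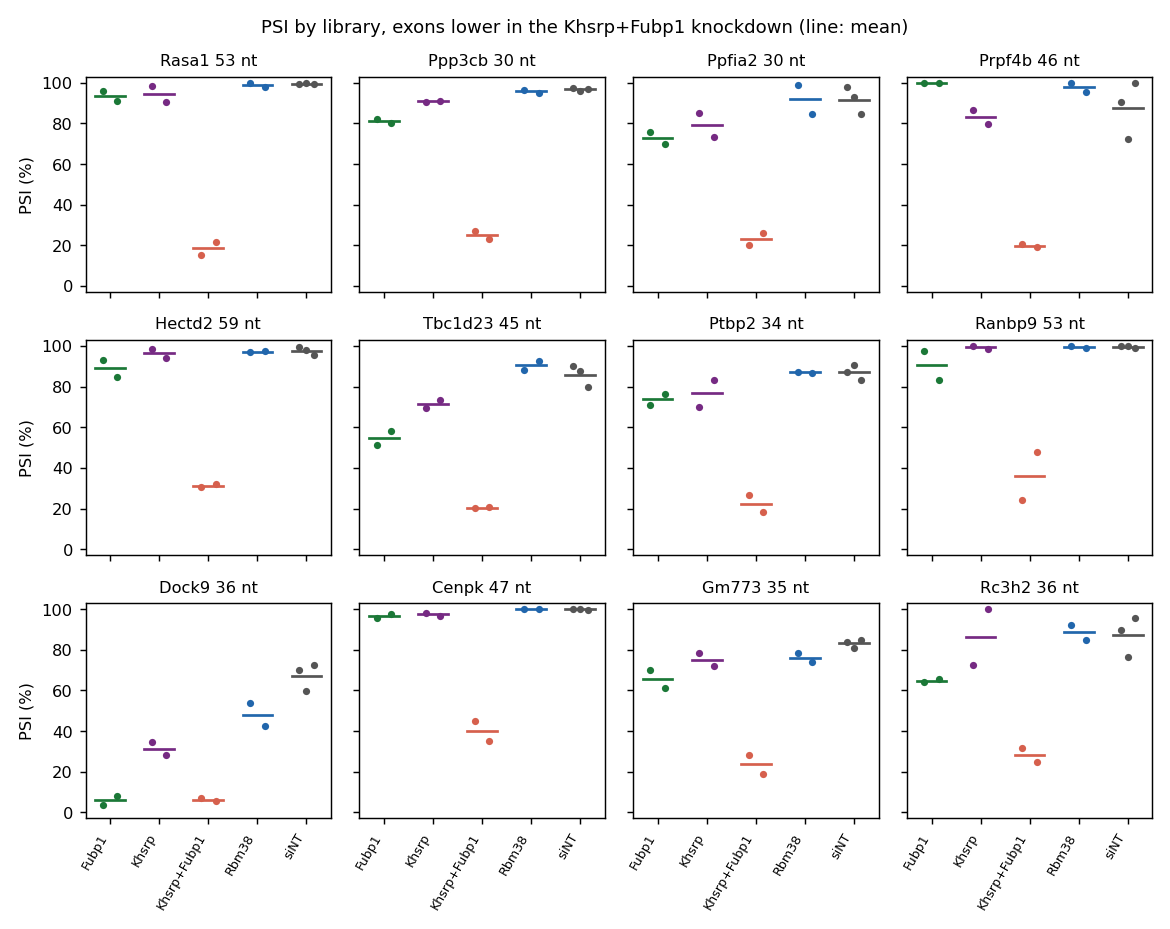
PSI (%) by library for the 12 short exons with the largest loss of inclusion in the double knockdown, 1 panel each, points for libraries and lines for group means, groups in the order Fubp1, Khsrp, Khsrp+Fubp1, Rbm38, siNT. Both libraries of the double knockdown lie below every siNT library in each panel (Rasa1 at 15.3% and 21.6%, against 99.2% to 99.7%), and in 11 panels, all but Dock9, also below both libraries of each single knockdown.

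The 107 exons that rose in the double knockdown, in 106 genes, did so by 10.2 to 48.6 points (median 22.4), 27 of them by 30 points or more. Ythdf3, a reader of methylated adenosine in RNA, included a 33 nt exon at 65.5% and 60.7% in the double knockdown, against 20.9%, 15.4% and 11.4% in siNT (difference in log2 odds 3.21 ± 0.43, SE; limma adjusted p = 0.000582). The 56 nt exon of Nrf1 was at 60% and 51.5% in the double knockdown, 26.5% and 25% in the Fubp1 knockdown and 16.4% and 15.8% in the Khsrp knockdown, against 7.16%, 7.58% and 8.77% in siNT. In the double knockdown its log2 odds were higher by 3.87 ± 0.26 (SE; limma adjusted p = 8.58e-06). Stox2 reached 84.4% and 87.2% in the double knockdown, against 43.1%, 43.2% and 44.02% in siNT (difference in log2 odds 2.96 ± 0.25, SE; limma adjusted p = 2.87e-05). These 3 exons were covered by at least 135 reads in every library.

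Other gains were in Ralgps1, Plekhm2, Enox2, Tmub2 and Pcyox1l. Ralgps1, an exchange factor for Ral, had a 52 nt exon at 75% and 68.2% in the double knockdown, against 22.2%, 22.1% and 30.4% in siNT (limma adjusted p = 0.000243). Plekhm2, which couples lysosomes to kinesin, included a 60 nt exon at 54.2% and 48.7% in the double knockdown against 13.9%, 12.4% and 8.82% in siNT (limma adjusted p = 0.000191). Enox2, an oxidase of the cell surface, reached 100% and 94.3% at its 48 nt exon in the double knockdown, where siNT libraries had 65.8%, 50.1% and 51.6% (limma adjusted p = 0.000498). Tmub2, a membrane protein with a ubiquitin-like domain, had 76.5% and 64.3% at a 55 nt exon in the double knockdown, against 35.7%, 28.4% and 31.1% in siNT (limma adjusted p = 0.000236). Pcyox1l, related to an enzyme that degrades prenylated cysteine, had 51.8% and 46.3% at a 42 nt exon in the double knockdown against 9.69%, 11.4% and 8.33% in siNT (limma adjusted p = 0.000181). In these 5 genes the libraries of the double knockdown and of siNT lay well apart, and none lost its call when a library was left out. The exon of Enox2 rests on few reads, 24 to 96 a library.

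A further 4 gains were less secure. Ttc7, a scaffold for a phosphatidylinositol kinase, had a 58 nt exon at 73.7% and 90.9% in the double knockdown, against 42.1%, 29.2% and 31.9% in siNT (limma adjusted p = 0.0021). Dcakd, named for its dephospho-CoA kinase domain, had a 31 nt exon at 90.7% and 100% in the double knockdown, against 66.7%, 39.6% and 48.4% in siNT (limma adjusted p = 0.0107). 9030617O03Rik, now Dglucy, which encodes a D-glutamate cyclase, had a 57 nt exon at 59.1% and 55.6% in the double knockdown, against 18.1%, 14.7% and 15.8% in siNT (limma adjusted p = 0.00316). Each of these lost its call in 1 of 5 omissions. Ercc4, an endonuclease of nucleotide excision repair, had the largest gain, with 80% and 42.9% at a 53 nt exon in the double knockdown, against 6.25%, 20% and 12.3% in siNT (limma adjusted p = 0.0347). With 20 to 53 reads a library and widely spaced replicates of the double knockdown, its call was lost in 3 of 5 omissions.

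**Figure D4:**
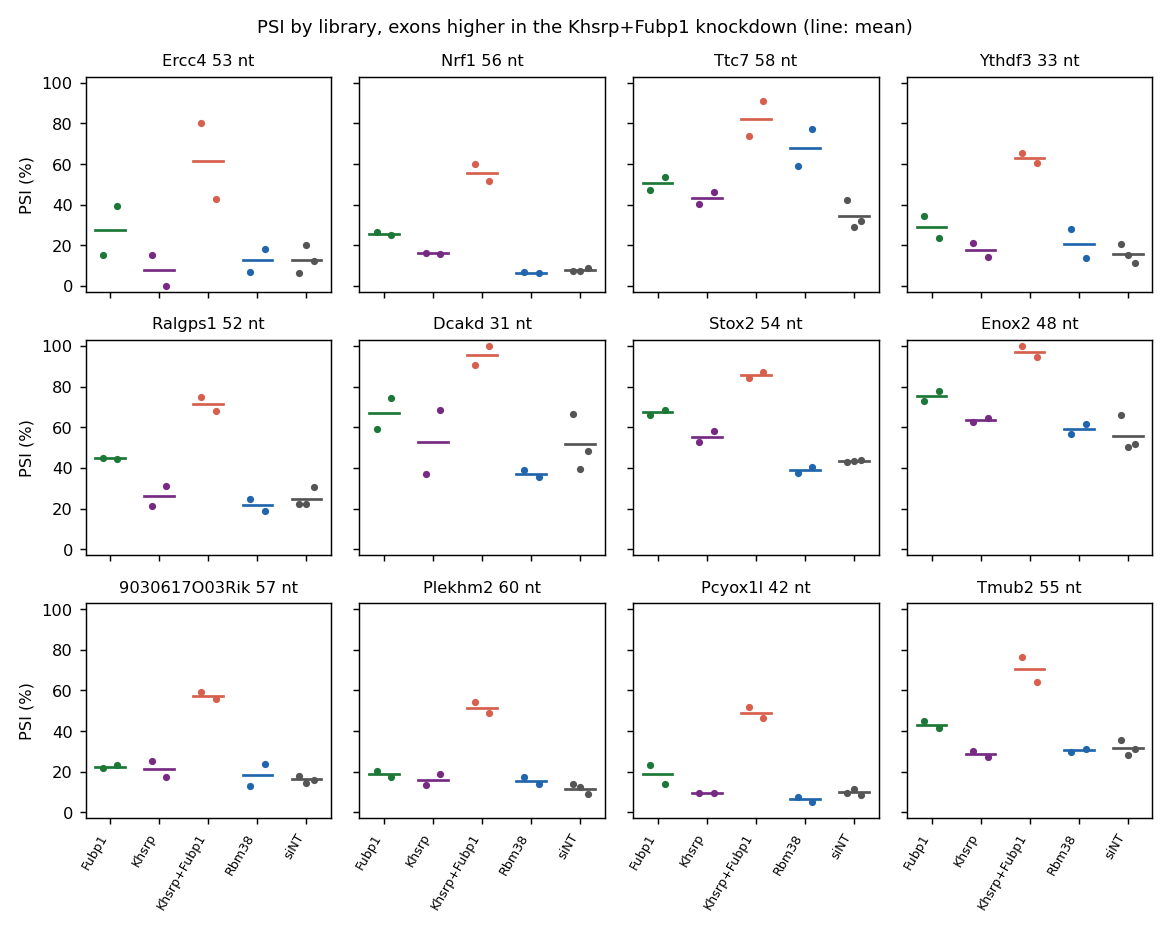
PSI (%) by library for the 12 short exons with the largest gain of inclusion in the double knockdown, drawn as points with group means as lines, groups in the order Fubp1, Khsrp, Khsrp+Fubp1, Rbm38, siNT. Both libraries of the double knockdown lie above every siNT library in each panel (Nrf1 at 60% and 51.5%, against 7.16% to 8.77%), and the replicates of Ercc4 lie far apart, at 80% and 42.9%.

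Loss and gain followed the starting level. Of the 1403 exons over 80% in siNT, 141 fell and 9 rose in the double knockdown; of the 381 between 20 and 80%, 79 fell and 49 rose; of the 673 under 20%, 11 fell and 49 rose. An exon near full inclusion has little room to rise, and one near 0 little room to fall. Exons that fell had longer introns on both sides than exons not called, with medians of 2871 nt upstream and 3052 nt downstream against 1805 and 2076 nt, while exons that rose had medians of 1654 and 2946 nt. Depth moved with these groups, at a median of 353 reads for exons that fell and 205 for those that rose, against 223 for those not called, and its part in the intron lengths was not tested. Frame differed less than after Fubp1 knockdown alone: 126 of the 231 lower exons (54.5%) and 55 of the 107 higher ones (51.4%) were a multiple of 3 nt long, against 46.8% of the exons not called. The call rate was 16.6% for exons of 28 to 38 nt, 13.4% for 39 to 49 nt and 12.9% for 50 to 60 nt. Over all short exons it was 13.8%, beside 25.7% of microexons, 13.4% of exons over 60 nt and 2.65% of retained introns, with no test of these shares.

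Within the library set of the double knockdown, which holds siNT C alone, all 338 exons kept their direction and 326 kept at least 10 points. Their direction was fixed by the calls, since the double knockdown libraries of these exons overlapped no siNT library. A term for the library sets left 187 calls, 186 of them among the 338, and leaving out a library of the double knockdown gave 186 calls (without A, 179 of them among the 338) or 203 (without B, 193 among them). The authors' deposited table marks 675 short exons (27.5%) as changed in the double knockdown, where it marks 14.9% of events, and 335 of the 338 are among them. In 1556 exons the deposited quality text rated the balance of reads between junctions OK or B1 in every library, a wider class than OK alone. Of these, 73 rose and 163 fell.

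Host genes of short exons were lower in the double knockdown more often than higher by the authors' own comparison. This held whether the exons fell, rose or were not called. For exons that fell in the double knockdown and were not a multiple of 3 nt long, 48 of 86 host genes with a test (55.8%) were lower and 9 higher at an FDR under 0.05 in the authors' deposited table, with a median log2 fold change of -0.49. For those a multiple of 3 nt long, 44 of 107 (41.1%) were lower and 8 higher in the authors' deposited table, with a median of -0.30. For exons that rose, 20 of 50 host genes (40.0%) were lower and 8 higher where the exon was a multiple of 3 nt long, and 16 of 44 (36.4%) lower and 6 higher where it was not, in the authors' deposited table, with median log2 fold changes of -0.21 and -0.23. For exons not called and a multiple of 3 nt long, 33.1% of host genes were lower and 14.5% higher in that table by the authors. Where such exons were not a multiple of 3 nt, 31.8% were lower and 17.4% higher. Over all short exons 33.0% of host genes were lower and 15.9% higher in the authors' deposited table. Of all its 23378 tested genes 13.7% were lower and 13.2% higher. These shares were not tested against one another. After Fubp1 knockdown, the 19 host genes of exons that fell and were a multiple of 3 nt long had 7 higher (36.8%) and 2 lower (10.5%) in the authors' deposited table, with a median of 0.19. Where the fallen exons were not a multiple of 3 nt, 0 of 5 host genes were higher and 2 lower by the authors' values (median -0.38). For exons not called after Fubp1 knockdown and a multiple of 3 nt long, 19.5% were higher and 19.9% lower by the authors' values. The shares after Fubp1 knockdown were not tested either. In the authors' deposited table Ranbp9 was at 14.5 RPKM in the double knockdown and 49.3 RPKM in siNT (log2 fold change -1.65, FDR 1.37e-36), and Rasa1 at 25.7 RPKM and 53.7 RPKM in siNT (-1.27, FDR 2.53e-19). Hectd2 was at 11.4 RPKM in the double knockdown, against 23.6 RPKM in siNT (-1.12, FDR 2.02e-16), in the same table by the authors. Its Fubp1 knockdown value in the authors' deposited table was similar, 12.3 RPKM (-1.08, FDR 1.81e-15), with the exon at 93.1% and 84.9%. Ppp3cb, whose exon is a multiple of 3 nt, was at 42.9 RPKM in the double knockdown and 82.4 RPKM in siNT in the authors' deposited table (-0.78, FDR 4.67e-06). These levels carry no error here, and the authors' values and the inclusion come from the same libraries.

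In the Khsrp knockdown no short exon passed the threshold, and 323 (13.1%) had an unadjusted limma p under 0.05, where 9.54% of all events had. Of cassette exons over 60 nt 11.6% had such a p, and of microexons 27.4%. The authors' deposited table marks 139 short exons (5.66%) as changed, against 2.34% of events. With weights from counting error alone, limma called 10, and with no weights or with a term for the library sets 0. The 5 exons with the smallest p had an adjusted limma p of 0.109 (Numa1) and lower PSI in the Khsrp knockdown than in siNT. Numa1, a protein of the spindle poles, had its 42 nt exon at 40.1% and 43.96% in Khsrp knockdown libraries, 48.9% and 49.3% in Fubp1 knockdown libraries and 30.7% and 30.4% in the double knockdown, against 70.99%, 71.99% and 69.7% in siNT libraries. For Khsrp the log2 odds differed by -1.75 ± 0.23 (SE; limma), and the groups did not overlap. Against siNT C alone, the control of the same library set, Numa1 differed by -27.7 points. Kif1b, a kinesin that carries mitochondria and vesicles, had a 42 nt exon at 19.6% and 19.1% in the Khsrp knockdown and 9.37% and 8.71% in the double knockdown, against 37.5%, 38.2% and 37.9% in siNT, with 715 to 1812 reads a library. The 57 nt exon of Cux1, a homeodomain transcription factor, stood at 8.85% and 13.2% after Khsrp knockdown and 38.7%, 35.3% and 26.7% in siNT, while the Fubp1 knockdown had 43.4% and 42.03%. Tmem63b, a mechanosensitive ion channel, was near full inclusion at its 39 nt exon with 97.3% and 94.98% in the Khsrp knockdown, against 99.1%, 99.4% and 99.7% in siNT. In the double knockdown that exon was at 44.97% and 43.6% (limma adjusted p = 2.94e-06 against siNT). Cenpk had 98.1% and 96.7% in the Khsrp knockdown and 100%, 99.8% and 99.8% in siNT, a difference of under 3 points.

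After Rbm38 knockdown 4 exons rose. Prune2, a protein with a lipid-binding BCH domain, included a 36 nt exon at 51.6% and 50.5% in Rbm38 knockdown libraries, against 21.1%, 21.1% and 15.97% in siNT libraries (difference in log2 odds 2.10 ± 0.31, SE; limma adjusted p = 0.0361). The same exon was at 1.10% and 1.97% in the double knockdown, which is lower than siNT (limma adjusted p = 2.43e-05). Phldb1, which anchors microtubules at the cell cortex, had a 45 nt exon at 32.1% and 38.9% in the Rbm38 knockdown and 6.68%, 9.42% and 9.65% in siNT (difference in log2 odds 2.58 ± 0.30, SE; limma adjusted p = 0.0135). Dync1i2, an intermediate chain of the motor dynein, had the deepest coverage, with 1795 to 7409 reads at its 60 nt exon. Inclusion was 59.9% and 53.02% with the Rbm38 pool and 4.90% and 5.28% in the double knockdown, against 32.2%, 28.6% and 30.98% in siNT. The Rbm38 knockdown was higher than siNT (limma adjusted p = 0.0421) and the double knockdown lower (limma adjusted p = 2.03e-05). Tatdn1, a member of the TatD family of nucleases, had a 41 nt exon at 98.6% and 99.6% in the Rbm38 knockdown and 84.3%, 84.7% and 88.2% in siNT (limma adjusted p = 0.0315). It was at 60.5% and 45.5% in the double knockdown (limma adjusted p = 0.0316 against siNT). GENCODE places a matching exon, with 1 flank in common, in an untranslated region of a transcript of Tatdn1. Phldb1 was at 2.75% and 1.60% in the double knockdown, below siNT (difference in log2 odds -1.96 ± 0.32, SE; limma adjusted p = 0.00218), though by less than 10 points. All 4 exons were thus higher than siNT in the Rbm38 knockdown and lower in the double knockdown. Both rest on the same siNT libraries, and the Rbm38 and double knockdowns were not tested against each other. In the authors' deposited table Khsrp was itself lower with the Rbm38 pool, at 33.8 RPKM against 47.0 RPKM in siNT. The authors' log2 fold change was -0.70 for Khsrp (authors' FDR 0.024) and -0.39 for Fubp1 (authors' FDR 0.08). The part of these levels in the inclusion of the 4 exons was not tested. Numa1 and Kif1b, lower in the double knockdown, had higher inclusion after Rbm38 knockdown (87.1% and 85.8% for Numa1, 57.5% and 54.5% for Kif1b) than in siNT (70.99%, 71.99% and 69.7% for Numa1, 37.5%, 38.2% and 37.9% for Kif1b) but did not pass the test there (limma adjusted p = 0.0569 and 0.097). Other exons were higher in both knockdowns. Ppfibp1 had 41.4% and 47.4% with the Rbm38 pool and 62.55% and 50.4% in the double knockdown, against 24.8%, 27.4% and 27.9% in siNT. Ttc7, higher in the double knockdown, had 58.97% and 77.1% with the Rbm38 pool, against 42.1%, 29.2% and 31.9% in siNT. Neither passed for Rbm38 (limma adjusted p = 0.165 and 0.232). After Rbm38 knockdown the median signed difference from siNT over all short exons was 0.30 points, beside -0.08 points over all events. It was larger over microexons, at 1.95 points, and 0.13 points over cassette exons over 60 nt. The call rate was 0.163% of short exons, 0.418% of microexons and 0.049% of cassette exons over 60 nt, with no test of these shares. The authors' deposited table marks 158 short exons (6.43%) as changed after Rbm38 knockdown, against 2.59% of events. A term for the library sets left 0 of the 4 calls; with siNT C alone all 4 differences were still at least 10 points. Leaving out 1 library left 0 (siNT A), 1 (siNT B), 2 (Rbm38 A) and 0 (Rbm38 B) of them, and without siNT C there were 8 calls, 7 higher and 1 lower, with all 4 among them.

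**Figure D5:**
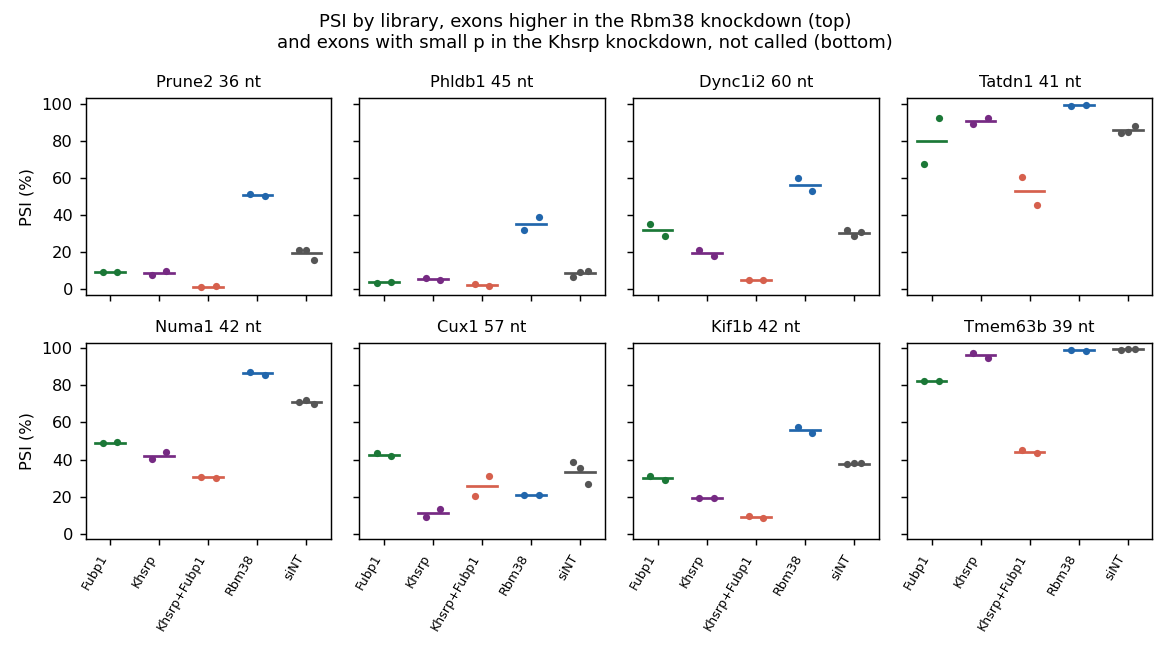
PSI (%) by library, points with group means as lines and groups in the order Fubp1, Khsrp, Khsrp+Fubp1, Rbm38, siNT. The top row holds the 4 exons that rose after Rbm38 knockdown. The bottom row holds 4 of the 5 exons with the smallest p-values in the Khsrp knockdown, those with the largest PSI differences. None of these passed. In the top row both Rbm38 libraries lie above every siNT library (Prune2 at 51.6% and 50.5%, against 15.97% to 21.1%); in the bottom row both Khsrp libraries lie below them (Numa1 at 40.1% and 43.96%, against 70.99%, 71.99% and 69.7%).

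The double knockdown was also set against each single one. Against the Fubp1 knockdown, 73 short exons were lower and 44 higher in the double knockdown, where 1.3% and 0.567% of all events were (1.86% in either direction). Ppp3cb was at 27.3% and 23.2% in the double knockdown, against 82.4% and 79.97% in the Fubp1 knockdown (difference in log2 odds -3.67 ± 0.36, SE; limma adjusted p = 0.000964). Akap9, an anchor of kinase A at the centrosome and Golgi, had a 54 nt exon at 94.6% and 97.7% in the double knockdown against 61.4% and 57.97% in the Fubp1 knockdown, a higher inclusion (limma adjusted p = 0.00521). Ubn2, a subunit of a histone chaperone complex, had a 51 nt exon at 63.3% and 67.5% in the double knockdown against 29.4% and 26.02% in the Fubp1 knockdown (limma adjusted p = 0.0347). Gpr19, an orphan receptor, had a 46 nt exon at 78.98% and 67.7% in the double knockdown against 42.1% and 31.6% in the Fubp1 knockdown (limma adjusted p = 0.0057). The call of Ppp3cb held without any 1 of the 4 libraries, that of Akap9 was lost in 1, that of Gpr19 in 2 and that of Ubn2 in all 4 omissions. The libraries of the double and the Fubp1 knockdown belong to different library sets. A term for the sets, which the siNT libraries of both sets make estimable, left 2 of these 117 calls. Under it the difference in log2 odds of Ppp3cb was -3.78 (limma adjusted p = 0.0755) and that of Akap9 3.08 (limma adjusted p = 0.272). That of Ubn2 was 3.30 (limma adjusted p = 0.158) and that of Gpr19 2.31 (limma adjusted p = 0.187). These 4 kept their direction and lost their call. Leaving out 1 library of either group gave 23 to 30 calls.

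Against the Khsrp knockdown, 140 short exons were lower and 66 higher in the double knockdown, where 2.72% and 0.787% of all events were (3.5% in either direction). These groups share a library set as divided here. The largest loss was again in Rasa1, at 15.3% and 21.6% in the double knockdown against 98.5% and 90.7% in the Khsrp knockdown (difference in log2 odds -6.88 ± 1.53, SE; limma adjusted p = 0.023), and 3 of 4 omissions ended that call. Ppp3cb was at 27.3% and 23.2% against 90.5% and 91.1% in the Khsrp knockdown (difference in log2 odds -4.84 ± 0.37, SE; limma adjusted p = 7.35e-05), a call that no omission ended. Asph was at 5.05% and 5.31% in the double knockdown against 33.1% and 30.3% in the Khsrp knockdown (limma adjusted p = 0.00039), and below the 24.1% and 20.4% of the Fubp1 knockdown as well (limma adjusted p = 0.00403). Without 1 library of the double knockdown the calls numbered 79 and 80, and without Khsrp A 105.

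Whether the double knockdown departs from the sum of the 2 single effects on the log2 odds was tested for each exon. No short exon was called, nor was any event (0.0%), and 313 short exons (12.7%) had an unadjusted limma p under 0.05, as did 8.86% of events. Of cassette exons over 60 nt 14.4% had such a p, and of microexons 19.7%, so the share of short exons was not high among cassette exons. With weights from counting error alone, limma called 13 short exons, and with a term for the library sets 0. Erbb2ip, a scaffold at cell junctions, had the smallest p. Its 57 nt exon was at 72.4% and 69.5% in the double knockdown, against 100% and 99.5% with the Fubp1 pool, 100% and 100% with the Khsrp pool and 98.9%, 99.6% and 99.5% in siNT (limma adjusted p = 0.0634 for the departure). Both Rbm38 libraries were at 100%. The exon thus stayed under the mean PSI limit of 99% only through the double knockdown, and its low value there is no separate support for a departure. Dut, which removes dUTP, showed a like pattern at 45 nt with 71.2% and 68.4% in the double knockdown, 96.4% and 94.8% with the Fubp1 pool and 99.1% and 98.8% with the Khsrp pool, against 98.98%, 97.8% and 98.4% in siNT (limma adjusted p = 0.101). C80913, now Uri1, a chaperone-like protein, had a 35 nt exon at 59.4% and 52.9% in the double knockdown, 94.9% and 93.6% with the Fubp1 pool and 95.3% and 100% with the Khsrp pool, against 91.5%, 93.3% and 87.6% in siNT (limma adjusted p = 0.13 for the departure). In all 3 exons the double knockdown stood below every other library, and the departure did not pass the test.

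By function of the host gene, 6 lists of genes drawn up with results of these data known were counted for the double knockdown, in which 231 of all 2457 short exons fell and 107 rose, as did 4.7% and 1.71% of all events. More exons fell than rose over all short exons. The same pattern within a list sets no list apart. The median difference in the double knockdown was -0.22 points over all short exons and -0.58 points over all events. Of 36 exons in genes of membrane traffic, 11 fell and 1 rose, with a median difference of -4.64 points. They include Dnm1l, at 21.6% and 19.3% in the double knockdown against 68.3%, 73.5% and 58.4% in siNT (limma adjusted p = 9.27e-05). Vps13a, a lipid transfer protein, had a 60 nt exon at 43.97% and 38.2% in the double knockdown and at 100% in all 3 siNT libraries (limma adjusted p = 0.00236), a call lost in 1 of 5 omissions. Among 25 exons of cytoskeletal and motor proteins 7 fell and none rose (median -1.03 points), with Kif1b at 9.37% and 8.71% against 37.5%, 38.2% and 37.9% in siNT (limma adjusted p = 2.21e-05). Add1, an adducin that caps actin, had a 37 nt exon at 30.7% and 32.3% in the double knockdown against 67.2%, 64.1% and 65.7% in siNT (limma adjusted p = 0.000258). GTPase regulators, kinases and phosphatases had 6 lower and 1 higher of 38 (median -2.65 points). Arhgef12 among them was at 26.1% and 17.8% in the double knockdown (limma adjusted p = 0.000578 against siNT).

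Of 33 exons of receptors, adhesion proteins and channels, 6 fell and 2 rose (median -1.55 points). Cd47, a surface protein that curbs phagocytosis, had a 33 nt exon at 20.9% and 29.4% in the double knockdown, against 50.8%, 57.4% and 65.8% in siNT (limma adjusted p = 0.00196). Rbm38 knockdown libraries had 83.1% and 85.1% at this exon, which did not pass the test (limma adjusted p = 0.0569). Ryr2, a calcium release channel, had a 50 nt exon at 28.9% and 21.9% in the double knockdown, against 55.6%, 59.3% and 41.2% in siNT (limma adjusted p = 0.0393), a call lost in 4 of 5 omissions. Itpr1, the calcium release channel gated by inositol trisphosphate, rose at a 45 nt exon, with 77.6% and 83.5% in the double knockdown against 46.5%, 50.9% and 65.8% in siNT (limma adjusted p = 0.00969); 1 omission ended that call. RNA-binding and splicing proteins had 3 lower and 1 higher of 24 (median -2.65 points). Hnrnpd, which binds AU-rich elements, had a 57 nt exon at 36.1% and 30.8% in the double knockdown against 57.4%, 56.6% and 52.6% in siNT (limma adjusted p = 0.00298), on 2391 to 6558 reads, and 1 omission ended its call. The gain was in Nova1, a neuronal splicing factor, with a 53 nt exon at 24.5% and 43.7% in the double knockdown against 7.02%, 8.41% and 6.72% in siNT (limma adjusted p = 0.00447), also lost in 1 omission. Transcription and chromatin proteins were split, with 3 lower and 3 higher of 26 (median -1.89 points). Zfp207, a zinc finger protein of the spindle, fell at a 48 nt exon to 44.98% and 38.6% in the double knockdown, against 92.2%, 88.1% and 92.02% in siNT (limma adjusted p = 3.38e-05). Mta1, of the NuRD complex, rose at a 51 nt exon to 51.4% and 47.7% in the double knockdown, against 15.3%, 17.2% and 17.2% in siNT (limma adjusted p = 0.000152). Smarca2, an ATPase of the SWI/SNF complex, rose at a 54 nt exon to 48.5% and 49.6%, against 23.96%, 22.1% and 23.96% in siNT (limma adjusted p = 0.00855), and lost the call in 2 of 5 omissions. In the Fubp1 knockdown the same lists held 3 lower exons (membrane traffic), 1 lower (cytoskeleton), 4 lower and 1 higher (GTPase regulators, kinases and phosphatases) and 1 lower (transcription and chromatin), and none in the other 2.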

How the data were processed

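RNA-seq libraries (poly(A) RNA, stranded, per the labels' protocols) of 11 N2A samples were analysed. The deposited event table gives a PSI in percent per event and library with corrected inclusion and exclusion reads; per its header the caller was vast-tools, with neither its version nor the build of its coordinates given in the sources used here. A second deposited table by the authors gives a PSI per group (a score, since some values leave 0 to 100) and their call per event. The deposited expression table gives RPKM, log2 fold changes and p-values with FDR per gene by the authors; Salmon 0.14.1, edgeR and mm10 stand in the submitters' processing notes.

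Events with at least 10 reads in every library and a mean PSI of 1 to 99% were fitted in limma 3.58.1 (R 4.3.3) on log2((inclusion + 0.5)/(exclusion + 0.5)), with 1 mean per group and precision weights from the counting variance plus a between-library variance of 0.12. P-values were Benjamini-Hochberg adjusted over all 60137 events; calls are those below 0.05 that also differ by at least 10 points of PSI. PSI recomputed from the reads differed from the deposited percent by at most 0.05 points. Reads without molecular identifiers are not independent molecules, so the weights cover counting error and a common spread. The label of 1 Fubp1 library names replicate A in its title and B in its description; the description was used. Exons were placed on GENCODE vM21 (GRCm38) by gene symbol, strand, exon length and intron lengths, with no conversion of coordinates.

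The exons and gene lists were chosen with earlier results of these data known. Named are the called exons with the largest differences whose libraries do not overlap (8 per direction, 12 for the double knockdown, 4 against single knockdowns), the 3 largest per list, and, where fewer than 3 were called, the 5 with the smallest p. Not every exon so chosen is reported here. Alternatives were other weights, a term for library sets, a replicate block, another pseudocount, read minimum or PSI difference, and fewer libraries. A junction balance rated OK or B1 in every library was a further alternative, chosen after seeing the data.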

Additional observations from a re-analysis of the deposited data

How the results depend on the processing

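The double knockdown had 186 to 451 calls over the alternatives run, while the counts of the Fubp1 and Rbm38 knockdowns depended on the weights. Without weights the calls numbered 5 (Fubp1), 0 (Rbm38) and 69 (double against Fubp1). With counting error alone in the weights they numbered 72 (Fubp1), 10 (Khsrp), 29 (Rbm38) and 13 (departure from additivity). A term for library sets gave 19 (Fubp1), 187 (double), 0 (Rbm38) and 2 (double against Fubp1). A pseudocount of 1 read gave 58 (Fubp1), 14 (Rbm38) and 4 (departure), and at least 20 reads gave 9 for Rbm38. With only the libraries compared in the fit there were 3 for Fubp1 and 0 for Rbm38. With a junction balance rated OK or B1, chosen after seeing the data, there were 20 for Fubp1. The cause of these changes was not tested. Leaving out 1 library gave 2 to 26 (Fubp1), 0 to 2 (Khsrp), 186 to 314 (double), 0 to 8 (Rbm38), 23 to 30 (double against Fubp1) and 79 to 144 (double against Khsrp). The replicate letters did not pair the samples: deviations of libraries with the same letter correlated at -0.041 to 0.08, and the replicate block gave 21 calls for Fubp1 and 1 for Rbm38. Over the named exons, 831 values stayed on their side of the threshold, 206 fell short of it, 13 passed it and 0 reversed.

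Depth limits the exons with few reads: with 10 reads a PSI moves in steps of 10 points, so exons such as those of Dock9, Ercc4, Dcakd and Rc3h2 are less certain than those with deep coverage. Groups of 2 libraries give little weight to any single difference. Library numbers follow the knockdowns, so the Fubp1 and double knockdowns differ also in library set.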

Other observations

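Several host genes carried more than 1 changed short exon in the double knockdown. There were 33 such genes; in 25 all the called exons fell, in 1 all rose, and in 7 exons moved both ways. Vps13a, which moves lipids between membranes, had the most, with 4 exons that fell. Meaf6, a subunit of histone acetyltransferase complexes, had 3 that fell, and Itpr1 had 3 that moved in both directions. Exons of 1 gene can share reads and are not independent. These genes were picked after their values were seen.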
